A study of Mus musculus with 9 samples.

Results

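Integrins are the receptors by which cells of the arterial wall hold on to the matrix around them. The genes described here are the 10 subunits that bind the wall's matrix, chosen by name: the alpha subunit genes Itga1, Itga5, Itga7, Itga8, Itga9, Itga11 and Itgav and the beta subunit genes Itgb1, Itgb3 and Itgb5. All 10 were found, by their Entrez Gene identifiers, among the 18830 genes listed for each library. RNA was sequenced from 9 libraries of mouse aorta in 3 groups of 3, all with the genotype ApoE knock out, which makes mice prone to atherosclerosis. Of the 3 groups, 1 was a sham control, and the others had angiotensin II (Ang II), a peptide that raises blood pressure, delivered from an implanted osmotic pump at 1000 ng/kg/min for 14 days (Ang II 14D) or 28 days (Ang II 28D). The study's design text describes this as a model of abdominal aortic aneurysm sampled at the suprarenal abdominal aorta. It names a saline infusion for the control mice, gives only a day-28 harvest, and does not say on which day the sham mice were taken. The sources used here give neither age nor sex, nor whether a library was 1 mouse or a pool, so a p-value measures the spread between these libraries, which may be technical.

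An integrin is a pair of 1 alpha and 1 beta chain that spans the membrane, with the matrix bound outside and actin held inside through talin and kindlin. In the arterial media, smooth muscle cells use integrins to sense and transmit wall tension, and the alpha chain largely sets which matrix protein is bound. The products of Itga5, Itga8 and Itgav read the Arg-Gly-Asp motif of fibronectin, nephronectin, vitronectin and osteopontin; those of Itga1 and Itga11 bind collagen; that of Itga7 binds laminin; that of Itga9 binds tenascin-C among others. The Itgb1 chain pairs with every one of these alpha chains, whereas Itgb3 and Itgb5 pair with the Itgav chain.

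The sequences upstream of 3 members that the results turn on are shown: Itga8, the member with the lowest level relative to sham; Itga11, the member that was higher; and Itgb1, the common partner. They come from RefSeq windows on GRCm38.p6 that run from 250 bases before to 50 bases after an annotated start, trimmed to the bases outside the gene as both RefSeq and GENCODE M21 annotate it, and are written 5′ to 3′ on the gene's strand. The Itga8 stretch is chr2:12301986-12302194 on the minus strand, the Itgb1 stretch chr8:128685404-128685653 on the plus strand, and the Itga11 stretch chr9:62677605-62677825 on the plus strand. Capitals mark matches to a searched motif.
Itga8: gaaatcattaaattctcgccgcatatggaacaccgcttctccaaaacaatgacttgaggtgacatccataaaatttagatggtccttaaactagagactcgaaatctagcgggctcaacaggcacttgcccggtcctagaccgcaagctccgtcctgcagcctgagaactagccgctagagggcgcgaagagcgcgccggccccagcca
Itgb1: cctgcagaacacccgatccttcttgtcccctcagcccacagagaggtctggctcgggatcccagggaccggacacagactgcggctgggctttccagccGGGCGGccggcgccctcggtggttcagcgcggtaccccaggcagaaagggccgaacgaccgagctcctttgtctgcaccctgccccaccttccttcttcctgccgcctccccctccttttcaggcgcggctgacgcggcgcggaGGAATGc
Itga11: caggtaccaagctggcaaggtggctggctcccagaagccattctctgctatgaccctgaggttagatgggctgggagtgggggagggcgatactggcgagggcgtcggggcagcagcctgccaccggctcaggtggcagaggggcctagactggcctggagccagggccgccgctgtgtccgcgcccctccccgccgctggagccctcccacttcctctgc
The capitals in Itgb1 are a GC box (GGGCGG) and an MCAT site (GGAATG). Windows were found for 8 of the 10 members. Both strands of the full 300-base windows were searched for the GC box and MCAT letters above, for the AP-1 site (TGANTCA), for the TATA box (TATAAA), and for the CArG box and the NF-kB site, given by name; no letters of these motifs lie in the stretches printed for Itga8 and Itga11. GGGCGG was present in 4 of 8 member windows (Itgav, Itgb1, Itga5 and Itgb5) and in 35.7% of all 32851 windows. GGAATG was present in 1 of 8 (Itgb1) and in 14.7% of all windows, and TGANTCA in 1 of 8 (Itga9) and 7.81%. The CArG box, the NF-kB site and TATAAA were in 0 of 8 member windows and in 1.63%, 8.46% and 13.6% of all windows. The windows of Itgav and Itga9 lie inside the annotated gene. These matches describe the letters of the window and nothing more.

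Library totals were 9609690 to 14923936 expected counts. Levels are given in CPM, a gene's count scaled to a common library size after TMM normalisation. Apoe had 22.5 to 648 CPM over the 9 libraries. No library without the knockout was analysed here and the deleted part of the gene is not given, so this level does not check the genotype. The tissue's defining smooth muscle transcripts were present throughout, with Myh11, the smooth muscle myosin heavy chain, at 304 to 5692 CPM. Sample titles call the tissue muscle, while the tissue label reads aorta. Skeletal muscle markers stood at a mean log2 CPM of 10.34, 8.77 and 3.18 in Ang II 28D libraries 1, 2 and 3, and at or below 1.22 in the other 6. Markers of brown and white fat stood at 9.62 to 10.3 in sham, 7.68 to 9.23 in Ang II 14D and 8.82 to 10.04 in Ang II 28D libraries. Ucp1, a brown fat gene, was at 6134 CPM in sham library 3, above Myh11 at 3920 CPM there. The part of fat in the members' levels was not tested. Markers of nerve and Schwann cells ranged from 2.10 to 8.23 and were highest in sham library 2. Counts and fold changes of the 10 members without these libraries close the report; the other lists, the shares and the correlations use all 9 libraries.

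In the sham aorta Itgb1 and Itga8 were the most abundant of the 10 transcripts once corrected for length. On the scale of RPKM (CPM divided by transcript length in kilobases), Itgb1 stood at 207 ± 51.9 (SD, n = 3) and Itga8 at 151 ± 78.6. Itgb5 followed at 90.0 ± 39.3, Itga5 at 71.0 ± 41.2, Itga7 at 42.4 ± 13.8 and Itga9 at 36.2 ± 15.3. Each of these 6 overlapped its neighbour in the order. Itgb1, at 152.5 RPKM or more, still lay wholly above Itgb5 (at most 118.4 RPKM), Itga5, Itga7 and Itga9. Itga8, at 63.8 RPKM or more, lay wholly above Itga7 (at most 56.6 RPKM) and Itga9. Within each sham library the order from Itgb1 down to Itga7 was the same, while Itga9 stood above Itga7 in sham library 3. Itgb3 at 12.5 ± 4.91 RPKM was separated from Itga9 and overlapped Itgav at 7.09 ± 0.761. Itga1 at 4.54 ± 0.557 and Itga11 at 1.57 ± 0.578 RPKM were each separated from the member above. With exon-union lengths the order was the same except that Itga9 (33.0) stood above Itga7 (21.0). At day 28 the top 3 by mean RPKM were Itgb1 at 120 ± 25.1, Itgb5 at 53.3 ± 14.7 and Itga5 at 33.2 ± 17.2, and Itga8, at 15.0 ± 8.16, stood below Itga7 at 21.2 ± 6.18 as well; with exon-union lengths Itga8 (11.8) stood above Itga7 (10.5).

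Ang II 28D libraries had less of most of these transcripts than sham. Of the 10 members, 7 (Itga1, Itga7, Itga8, Itga9, Itgav, Itgb1 and Itgb3) were lower in every Ang II 28D library than in any sham library, against 9.47% of the 14751 genes tested, and 1 (Itga11) was higher in every one, against 12.2% of genes. At day 14, 1 member was wholly below sham (Itga8; 13.5% of genes) and 1 wholly above (Itga11; 12.6% of genes). Between the Ang II groups, 5 members were wholly lower at day 28 than at day 14 (Itga5, Itga9, Itgb1, Itgb3 and Itgb5; 5.71% of genes) and 0 wholly higher (4.35% of genes). Because both Ang II groups are set against the same 3 sham libraries, the comparisons with sham are not independent. The tissue is bulk RNA, in which fewer cells of a type and less RNA per cell cannot be told apart.

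edgeR's quasi-likelihood test with Benjamini-Hochberg adjustment over all 14751 genes called 0 members in each comparison, as it called 0.0% of all genes, with lowest adjusted p of 0.112 at day 14, 0.203 at day 28 and 0.769 between days. An unadjusted p under 0.05 was reached by 2 of 10 members at day 14 (23.5% of genes), 5 at day 28 (13.9% of genes) and 3 between days (6.12% of genes). DESeq2 called 2 members at day 14 (Itga8 and Itga11; 13.4% of genes), 4 at day 28 (Itga8, Itga9, Itgb1 and Itgb3; 6.6% of genes), and 1 between days (Itgb3; 0.8% of genes), while limma-voom called 0 members and 0 genes in each. So whether a member passes depends on the test. The median log2 fold change of the members was -0.30 at day 14, -0.90 at day 28 and -0.93 between days, beside -0.07, -0.08 and -0.05 over all tested genes.

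**Figure D1:**
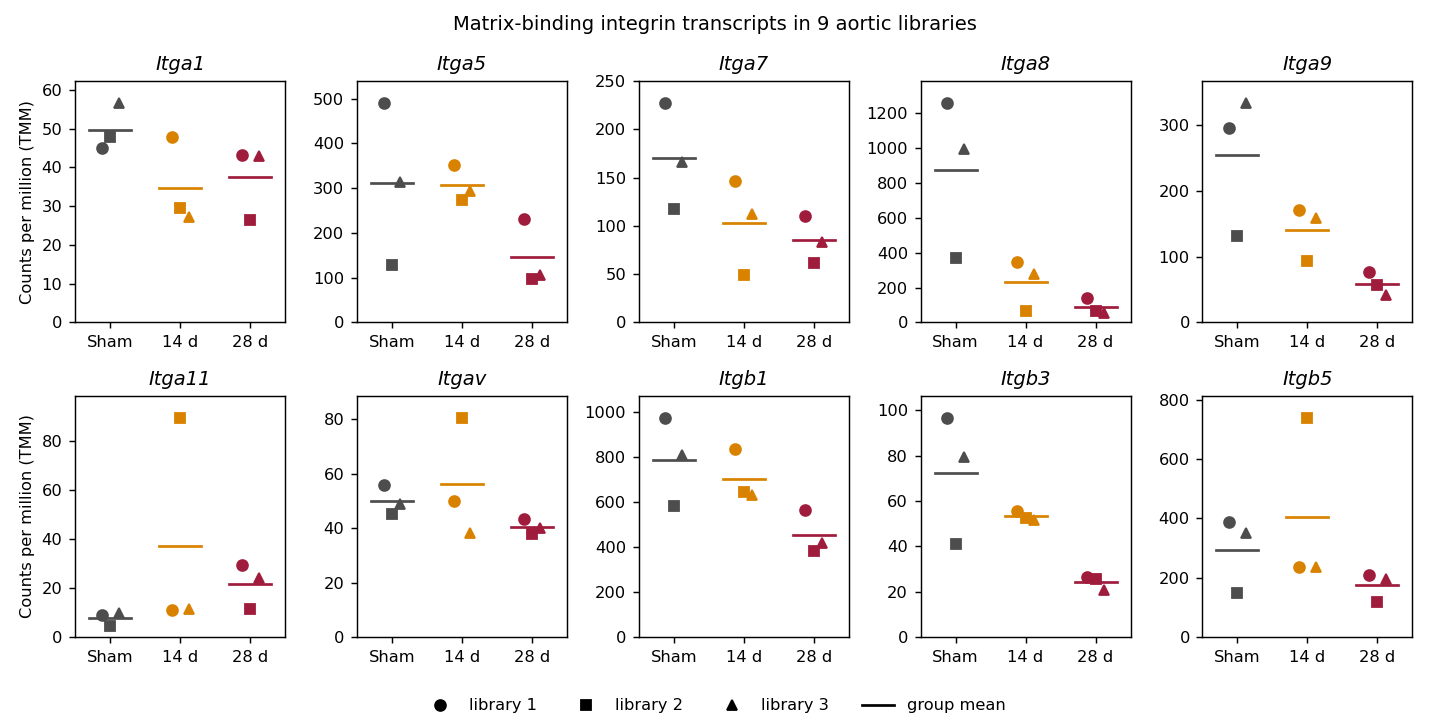
CPM (TMM-scaled, linear axis from 0) of the 10 integrin genes in 3 sham, 3 Ang II 14D and 3 Ang II 28D libraries; each point is 1 library, its shape the library number, and the lines are group means. Itga8, Itga9 and Itgb3 lie wholly below sham at day 28, and Itga11 is the member that lies wholly above sham at both days.

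Itga8 (Entrez Gene 241226; chr2:12106632-12301985, minus strand, RefSeq annotation of GRCm38.p6, as for the other members) encodes the alpha chain of the nephronectin receptor of smooth muscle and mesenchymal cells. Its level was 1260, 371 and 996 CPM in sham libraries 1 to 3, 347, 66.3 and 275 CPM in the Ang II 14D libraries, and 141, 67.4 and 52.7 CPM in the Ang II 28D libraries. Every Ang II library was below every sham library, though the lowest sham library and the highest 14-day library were close, and the Ang II groups overlapped each other. The log2 fold change was -1.93 ± 0.71 (SE, n = 3 against 3; edgeR adjusted p = 0.163, DESeq2 adjusted p = 0.0333) at day 14 and -3.33 ± 0.75 (edgeR adjusted p = 0.203) at day 28, which is 10.1-fold lower. Over the settings tried, the adjusted p for day 28 ran from 0.000123 with DESeq2 to 1. The log2 value at day 28 was between -4.05 and -2.98 in every setting. Reads of the antisense gene E030013I19Rik, which shares 372 exon bases with Itga8 on the opposite strand, cannot be told apart if the counting ignored strand, on which the labels are silent. The same holds for Itgav, which shares 634 exon bases with Gm13684, and Itga7, which shares 9 with the counted gene Mettl7b. Itga1 shares 685 exon bases with Gm49395 on its own strand, which a strand setting cannot separate.

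Itga5 (Entrez Gene 16402; chr15:103344286-103366791, minus strand) encodes the alpha chain of the main fibronectin receptor. It stood at 490, 129 and 314 CPM in sham, 351, 274 and 293 CPM at day 14, and 232, 97.2 and 107 CPM at day 28. Sham spanned a wide range that held all the 14-day libraries and overlapped the 28-day ones, while the 28-day libraries lay wholly below the 14-day ones. Its log2 fold change was -0.02 ± 0.50 at day 14, with a sign that turned under several settings, -1.10 ± 0.51 at day 28 (edgeR adjusted p = 0.401), and -1.07 ± 0.51 between days (edgeR adjusted p = 0.774).

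Itgav (Entrez Gene 16410; chr2:83722303-83806917, plus strand) encodes the alpha chain that pairs with the Itgb3 and Itgb5 products, among others, and some of these pairs release transforming growth factor beta from its latent complex. It stood at 55.8, 45.3 and 48.9 CPM in sham, 50.2, 80.6 and 38.4 CPM at day 14 and 43.5, 37.8 and 40.2 CPM at day 28. The 28-day libraries were all below sham but by a small margin, with a log2 fold change of -0.30 ± 0.26 (edgeR adjusted p = 0.726). At day 14 the value was 0.17 ± 0.26, and -0.15 without Ang II 14D library 2.

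Itgb3 (Entrez Gene 16416; chr11:104608000-104670476, plus strand) encodes the beta chain of the vitronectin receptor, which also pairs with the platelet chain encoded by Itga2b. It stood at 96.6, 41.1 and 79.5 CPM in sham, 55.6, 52.4 and 51.7 CPM at day 14 and 26.7, 25.5 and 20.7 CPM at day 28. The 28-day libraries were below every library of the other groups, and the 14-day libraries lay within the sham range. Against sham, Itgb3 at day 28 had a log2 fold change of -1.57 ± 0.29 (edgeR adjusted p = 0.203, 2.98-fold lower), and against day 14 one of -1.13 ± 0.29 (edgeR adjusted p = 0.769). Without sham library 2, edgeR called Itgb3 at day 28, with a log2 fold change of -1.86 and adjusted p = 0.0289. This was the 1 call of a member by edgeR in any setting. Sham library 2 was the library richest in nerve transcripts. It was also the sham library lowest in Itgb3 and in smooth muscle markers, at a mean log2 CPM of 8.82 beside 10.29 and 9.79. The part of these traits in the call was not tested. The mean log2 CPM of 5 platelet markers was 1.46 to 1.71 in sham and 2.25 to 2.62 at day 28; within it Pf4 was at 12.8 to 20.5 and 39.8 to 77.7 CPM, and Gp1ba at 4.15 to 6.29 and 3.80 to 5.23 CPM. Their part in the level of Itgb3 was not tested.

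Itgb5 (Entrez Gene 16419; chr16:33829665-33949338, plus strand) encodes the other vitronectin-binding beta chain. Its CPM was 388, 148 and 350 in sham, 237, 739 and 238 at day 14 and 210, 120 and 195 at day 28. Ang II 14D library 2 was the highest of all 9, and the 28-day libraries overlapped sham. Itgb5 had a log2 fold change of 0.45 ± 0.55 at day 14 but -0.30 without Ang II 14D library 2, and -0.76 ± 0.55 at day 28 (edgeR adjusted p = 0.658). Between days it was -1.21 ± 0.55, and -0.44 without that library.

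Among the collagen receptors, Itga11 (Entrez Gene 319480; chr9:62677855-62783979, plus strand) encodes a chain of fibroblasts that binds fibrillar collagen. It was at 8.95, 4.51 and 9.88 CPM in sham, 11.1, 89.2 and 11.5 CPM at day 14 and 29.3, 11.5 and 23.9 CPM at day 28. All Ang II libraries were above all sham libraries, and Ang II 14D library 2 was far above the rest. Itga11 had a log2 fold change of 2.26 ± 0.86 at day 14 (edgeR adjusted p = 0.173, and from 0.0402 with DESeq2 to 0.637 over the settings), but 0.56 without Ang II 14D library 2, and 1.47 ± 0.84 at day 28 (edgeR adjusted p = 0.529). Between days the value was -0.79, and 0.94 without that library. Over the 9 libraries Itga11 had r = 0.78 with the fibroblast marker level and r = 0.87 with the platelet marker level. Itga11 and both marker levels were highest in Ang II 14D library 2. The platelet genes differed there, with Pf4 at 332 CPM and Gp1ba at 3.03 CPM, its lowest of the 9 libraries. The part of these markers in the result was not tested. The 6 fibroblast genes summed to 1456 to 2469 CPM in sham, 2514 to 4254 CPM at day 14 and 1905 to 3952 CPM at day 28, with 2 of 6 wholly above sham at day 14 (12.6% of genes) and 1 of 6 at day 28 (12.2% of genes).

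Itga1 (Entrez Gene 109700; chr13:114958079-115101964, minus strand) encodes the alpha chain that binds basement membrane collagen in smooth muscle. Its values were 44.9, 47.8 and 56.6 CPM in sham, 47.7, 29.5 and 27.1 CPM at day 14 and 43.1, 26.3 and 42.9 CPM at day 28. The 28-day libraries were all just below sham and the 14-day ones overlapped it. At days 14 and 28 the log2 fold change was -0.52 ± 0.28 (edgeR adjusted p = 0.297) and -0.41 ± 0.28 (edgeR adjusted p = 0.618).

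Itga7 (Entrez Gene 16404; chr10:128933421-128958286, plus strand) encodes the laminin-binding chain of muscle cells, smooth and skeletal. It stood at 227, 117 and 166 CPM in sham, 146, 49.2 and 112 CPM at day 14 and 111, 61.2 and 82.9 CPM at day 28. The 28-day libraries were all below sham, the highest of them being library 1, which was also the one richest in skeletal muscle transcripts; the part of those transcripts in its level was not tested. For Itga7 the log2 fold change was -0.73 ± 0.43 at day 14 (edgeR adjusted p = 0.340) and -1.0 ± 0.43 at day 28 (edgeR adjusted p = 0.355).

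Itga9 (Entrez Gene 104099; chr9:118606709-118901003, plus strand) encodes a chain that binds tenascin-C, osteopontin and other ligands. It was at 296, 132 and 334 CPM in sham, 171, 93.4 and 158 CPM at day 14 and 77.3, 56.9 and 42.3 CPM at day 28. The 28-day libraries were below all others, and the 14-day and sham libraries overlapped. At day 28 the log2 fold change was -2.11 ± 0.42 (edgeR adjusted p = 0.203; DESeq2 adjusted p = 0.000119, 4.32-fold lower), and over the settings tried it lay between -2.59 and -1.81 with an adjusted p from 0.000119 to 1. Between days it was -1.26 ± 0.41 (edgeR adjusted p = 0.769).

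Itgb1 (Entrez Gene 16412; chr8:128685654-128733579, plus strand) encodes the common beta chain. Its counts were 976, 582 and 813 CPM in sham, 838, 645 and 634 CPM at day 14 and 565, 383 and 420 CPM at day 28. The 28-day libraries were below all 6 others, and the 14-day libraries lay within the sham range. The log2 fold change at day 28 was -0.79 ± 0.27 (edgeR adjusted p = 0.256; DESeq2 adjusted p = 0.0337 in a range of 0.0337 to 1 over the settings), a smaller difference than that of Itga8, Itga9 or Itgb3.

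**Figure D2:**
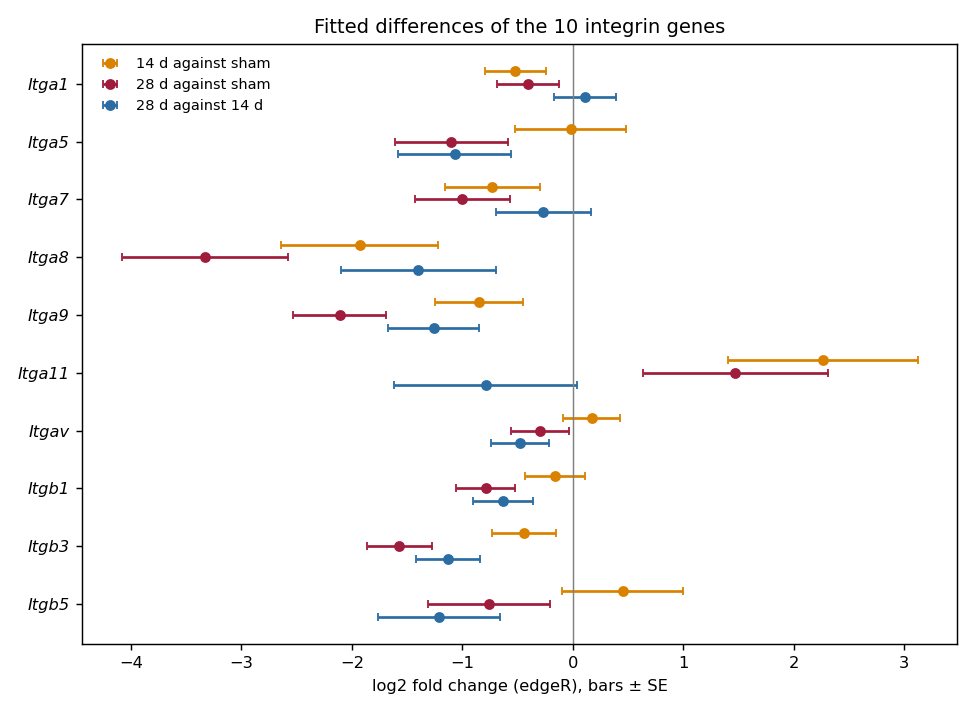
Log2 fold changes (edgeR) of each integrin gene for Ang II 14D against sham, Ang II 28D against sham and Ang II 28D against Ang II 14D, with bars of ± 1 SE. The values run from -3.33 (Itga8 at day 28) to 2.26 (Itga11 at day 14).

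The alpha chains differed in how much of their summed RPKM each supplied. Itga8 made up 49.1%, 41.7% and 49.5% of the 7 alpha transcripts in the sham libraries, 27.8%, 8.7% and 27.1% at day 14, and 18.4%, 17.2% and 12.2% at day 28. Itga5 made up 25.4%, 19.2% and 20.7% in sham, 37.4%, 47.5% and 38.2% at day 14, and 40.2%, 33.0% and 32.7% at day 28. Neither share overlapped sham in either Ang II group. Itga5 was thus the leading alpha transcript in all 6 Ang II libraries and Itga8 in all 3 sham libraries. The shares of Itga7 (14.6% ± 3.90 in sham, 23.8% ± 3.53 at day 28) and Itga11 (0.5% ± 0.10 and 4.8% ± 1.53) were higher at day 28, whereas that of Itga9 was 11.9% ± 2.13, 11.5% ± 1.39 and 9.5% ± 2.22 in the 3 groups. The summed alpha RPKM itself was 313 ± 147 in sham, 174 ± 41.4 at day 14 and 91.2 ± 35.4 at day 28. Shares of 1 total are tied to one another, and no test was made of them. Among the beta chains, Itgb1 held 67.9% ± 5.72 of the summed RPKM in sham, 60.6% ± 16.46 at day 14 and 67.7% ± 3.77 at day 28. In Ang II 14D library 2 it held 41.9%, below Itgb5 at 55.8%. Itgb3 held 4.0% ± 0.43, 3.0% ± 0.70 and 2.4% ± 0.59. With exon-union lengths the mean share of Itga8 was 47.5%, 21.1% and 16.6%.

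**Figure D3:**
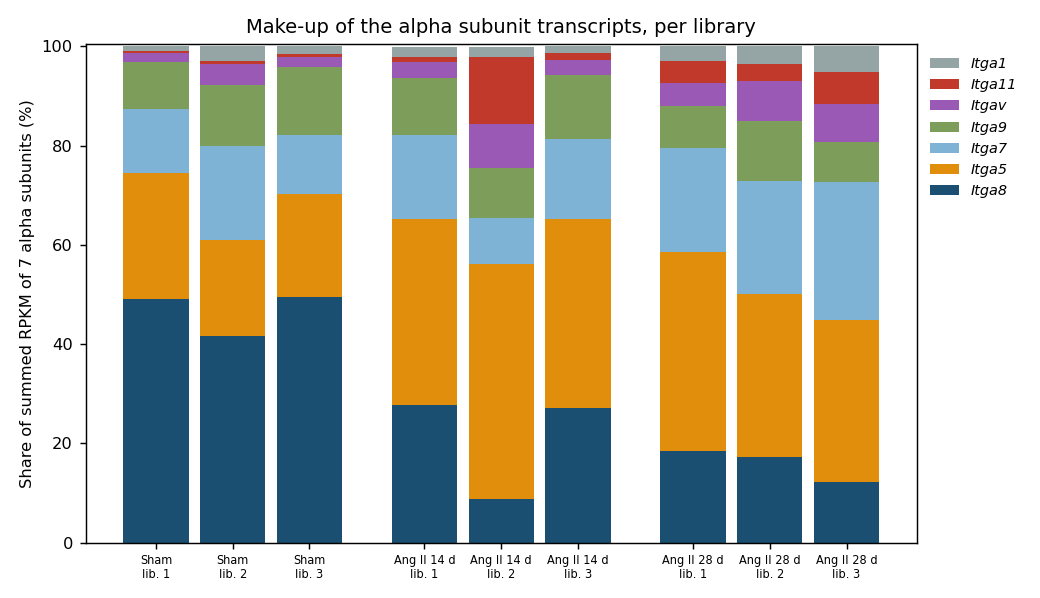
Share in percent of the summed RPKM of the 7 alpha subunit genes, 1 stacked bar per library. Itga8 lies between 41.7% and 49.5% in sham and between 8.7% and 27.8% in the Ang II libraries, and Itga5 between 19.2% and 25.4% against 32.7% to 47.5%.

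Smooth muscle transcripts were also lower at day 28, and several members varied with them across libraries. The mean log2 CPM of 8 smooth muscle genes (among them Myh11, Acta2 and Tagln) was 10.29, 8.82 and 9.79 in sham, 9.56, 7.24 and 9.17 at day 14, and 8.65, 7.20 and 6.74 at day 28. The 8 genes summed to 9528 to 28730 CPM in sham, 3601 to 16560 CPM at day 14 and 2051 to 6986 CPM at day 28, with none of them at 0 in any library. At day 14, 0 of the 8 genes were wholly below sham (13.5% of genes), and at day 28, 7 were (9.47% of genes). The exception was Des, the desmin gene, with 96.2 to 127 CPM in sham, 41.9 to 293 CPM at day 14 and 62.5 to 869 CPM at day 28, where the libraries rich in skeletal muscle transcripts were the highest. Over the 9 libraries the correlation with this list was 0.96 for Itga8, 0.92 for Itga9, 0.91 for Itga7, 0.86 for Itgb1, 0.80 for Itgb3 and 0.77 for Itga5. It was 0.52 for Itga1, 0.17 for Itgb5, 0.05 for Itgav and -0.57 for Itga11. Sizeable correlations were not particular to smooth muscle markers. Itga8 had -0.74 with leukocyte markers and -0.78 with platelet markers, and Itga1 had -0.87 with leukocyte markers. These are descriptions over 9 libraries of 3 groups that share scaling and group differences. The part of the smooth muscle content in the members' levels was not tested.

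Levels were also set against that list. The level of Itga8 minus the list was 0.01, -0.29 and 0.17 log2 units in sham, -1.12, -1.18 and -1.06 at day 14 and -1.50, -1.12 and -1.01 at day 28, so all 6 Ang II libraries were below all sham libraries. Without Des, which skeletal muscle also expresses, the group differences were -0.89 and -0.71, again with no overlap. Against Myh11 alone, Itga8 was at a ratio of 0.221, 0.205 and 0.254 in sham, 0.129, 0.218 and 0.153 at day 14 and 0.131, 0.178 and 0.160 at day 28, and Ang II 14D library 2 then lay within the sham range. Of all 14751 genes, 0.407% at day 14 and 0.122% at day 28 lay wholly below sham relative to the 8-gene list. Myh11, Lmod1 and Myocd, which belong to the list, were among these at both days. So was the ligand gene Npnt, so this position was not particular to Itga8. Itga5 and Itga11 lay wholly above sham relative to the list at day 14 (11.2% of genes). At day 28 these and Itga1, Itga7, Itgav, Itgb1 and Itgb5 did, 7 of 10 members, near the 65.4% of all genes that did; the list itself was lower there. For Itga9 and Itgb3 the groups overlapped relative to the list.

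**Figure D4:**
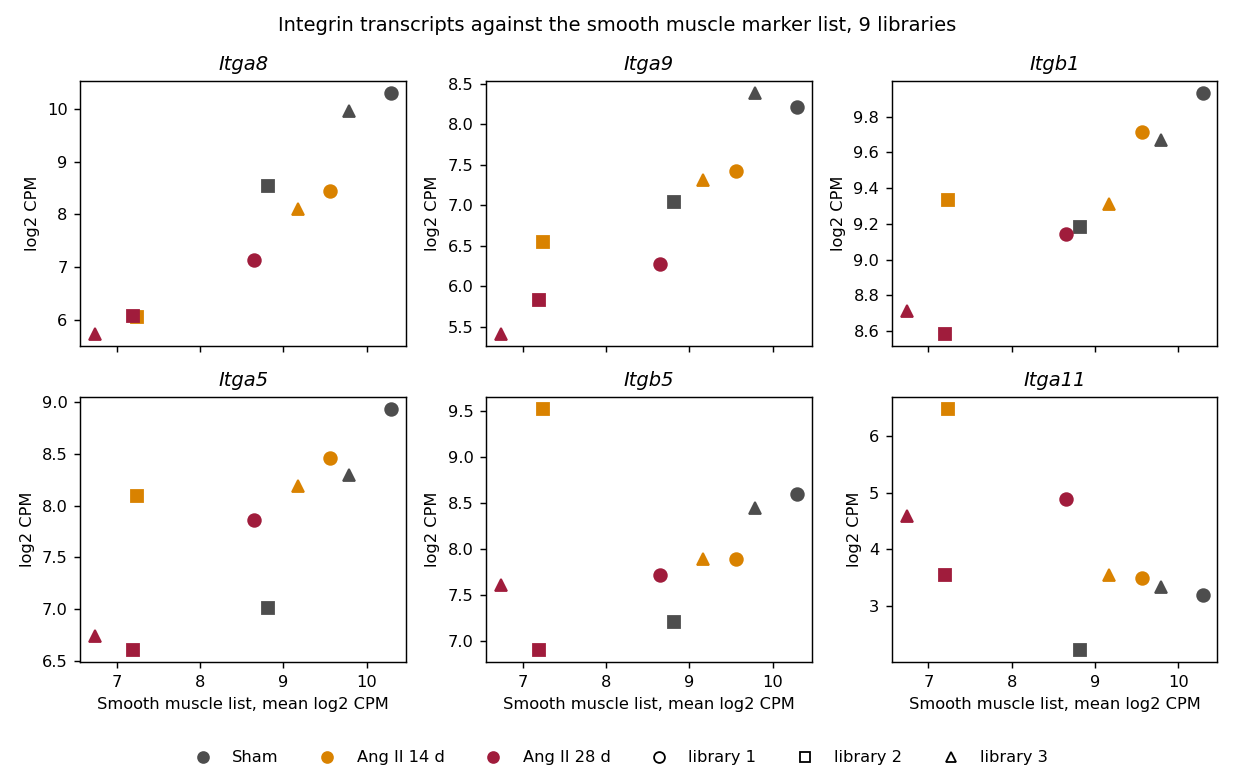
Log2 CPM of integrin genes (vertical axis) against the mean log2 CPM of the 8 smooth muscle genes (horizontal axis), 1 point per library, coloured by group. Itga8 follows the list (r = 0.96, n = 9) with the Ang II points lower for a given smooth muscle level, and Itga11 does not follow it (r = -0.57).

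Several members varied together across libraries, and the pairs named next were not separate sets. Itgb1, for example, had a correlation of 0.93 with Itgb3, 0.91 with Itga9 and 0.84 with Itga8. The correlation of log2 CPM over the 9 libraries was 0.95 for Itga8 with Itga9, 0.95 for Itga9 with Itgb3, 0.92 for Itga8 with Itga7, 0.93 for Itga5 with Itgb1 and 0.88 for Itgav with Itgb5, and -0.64 for Itga8 with Itga11. Among 10740 genes ranked by correlation with each member, the nearest to Itga8 were Grip2 (0.994), Thsd4 (0.992) and Spats2l (0.992), and the nearest to Itga9 were Crtc3 (0.995) and the ligand gene Npnt (0.984). The nearest to Itgb3 included the collagen-binding subunit Itga10 (0.968), and the nearest to Itga11 was Thbs2 (0.986), which encodes thrombospondin-2. With 9 points that share group differences such values are descriptions.

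Npnt, whose product nephronectin is the ligand of the Itga8 and Itgb1 pair, stood beside Itga8. It was at 599, 205 and 557 CPM in sham, 233, 64.1 and 227 CPM at day 14 and 83.6, 42.1 and 30.3 CPM at day 28. The 28-day libraries lay wholly below sham and the 14-day ones overlapped it, with log2 fold changes of -3.13 ± 0.67 (edgeR adjusted p = 0.203) and -1.38 ± 0.63 (edgeR adjusted p = 0.230). Fn1, which encodes fibronectin, the ligand of the Itga5 and Itgb1 pair, was at 1440, 1411 and 1673 CPM in sham, 3775, 3543 and 3471 CPM at day 14 and 1938, 841 and 1010 CPM at day 28. All 14-day libraries were above all others, while the 28-day ones overlapped sham: the log2 fold change was 1.25 ± 0.34 at day 14 (edgeR adjusted p = 0.117), -0.26 ± 0.34 at day 28 and -1.51 ± 0.34 between days (edgeR adjusted p = 0.769; DESeq2 adjusted p = 0.000682). Itga5 itself, in the same libraries, differed by -0.02 ± 0.50 on the log2 scale at day 14.

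Npnt and Fn1 belong to a list of 28 ligand genes of the wall. At day 14, 6 of the 28 were wholly above sham (12.6% of genes) and 0 wholly below (13.5% of genes). Thbs1, which encodes thrombospondin-1, was at 78.0, 40.5 and 49.0 CPM in sham and 339, 512 and 222 CPM at day 14, a log2 fold change of 2.68 ± 0.45 (edgeR adjusted p = 0.117). Col1a1, for type I collagen, had a log2 fold change of 1.95 ± 0.65 (edgeR adjusted p = 0.142), with Ang II 14D library 2 the highest, as for Itga11. Spp1, for osteopontin, overlapped sham at both days, with 11.7 to 578 CPM in sham and 221 to 7425 CPM at day 14. Tgfb1, for transforming growth factor beta 1, was wholly above sham at day 14, at 1.75 ± 0.46 (edgeR adjusted p = 0.117). At day 28 the counts were near the shares of all genes, with 4 ligands wholly above (12.2% of genes) and 2 wholly below (9.47% of genes): Npnt and Ltbp1, which encodes a binding protein of latent transforming growth factor beta, at -2.11 ± 0.59 (edgeR adjusted p = 0.217). Vtn, for vitronectin, was wholly above sham at day 28, at 1.24 ± 0.58 (edgeR adjusted p = 0.402). Lama5, for a laminin chain of the endothelial basement membrane, was at -1.07 ± 0.42 at day 28 and overlapped sham (edgeR adjusted p = 0.305). Between days, 7 were wholly lower at day 28 (5.71% of genes), among them Fn1, Thbs1 and Tnc, the tenascin-C gene, at -1.26 ± 0.32 (edgeR adjusted p = 0.769).

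**Figure D5:**
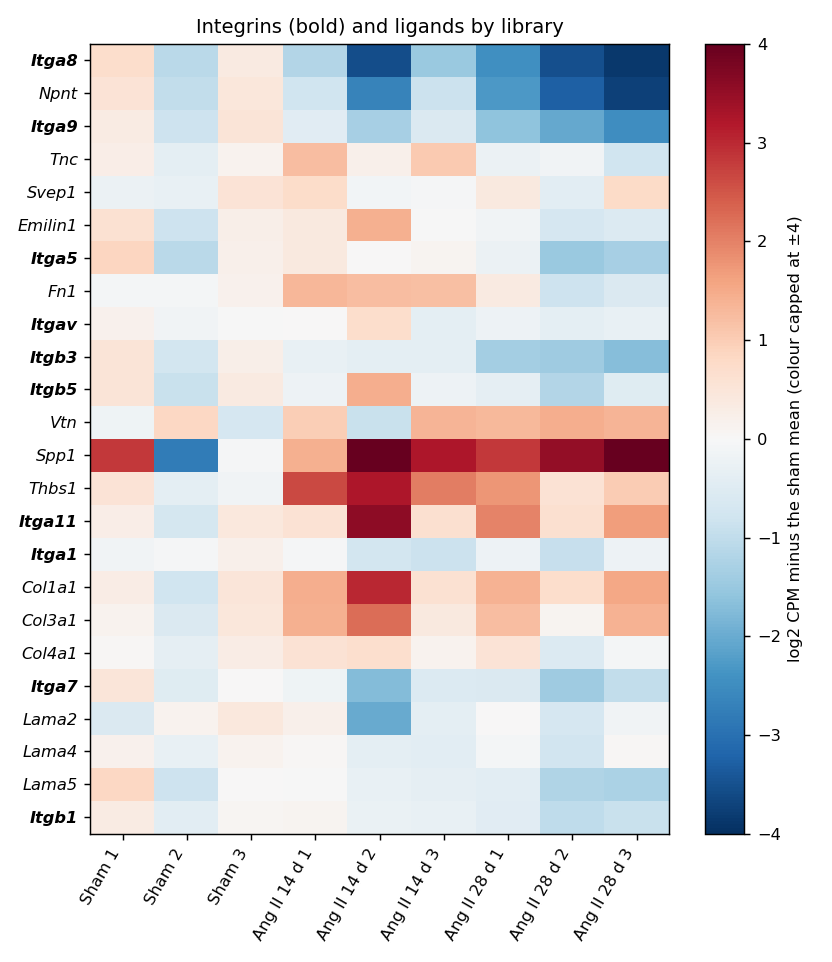
Log2 CPM minus the sham mean (colour, capped at 4 in each direction) of the integrin genes, in bold, and the ligand genes, 1 column per library. Itga8 and Npnt darken together to blue at day 28, and Fn1 is highest in the 3 Ang II 14D libraries.

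Of the 17 other integrin subunit genes, 13 could be tested and 4 were too low (Itgad, Itgb2l, Itgb6 and Itgb8, at most 3.39 CPM). These 13 were mostly higher, with 5 wholly above sham at day 14 and 0 below, and 7 above and 2 below at day 28, beside 12.6% and 13.5% of genes at day 14 and 12.2% and 9.47% at day 28. The leukocyte subunits Itgal, Itgb7, Itga4 and Itgam had log2 fold changes of 3.71 ± 0.96, 4.04 ± 1.05, 2.4 ± 0.63 and 2.52 ± 0.71 at day 14 (edgeR adjusted p = 0.117 for Itgal). Leukocyte markers, 6 of 6 wholly above sham at day 14 (12.6% of genes) and at day 28 (12.2% of genes), moved with them, summing to 98.3 to 269 CPM in sham, 464 to 2529 CPM at day 14 and 424 to 1109 CPM at day 28; their part in the result was not tested. Itgb2, the common beta chain of leukocyte integrins, was at 2.72 ± 0.83 at day 14. Itga2b, of platelets, was at 0.78 ± 0.85 at day 14 and 2.02 ± 0.87 at day 28, with overlap at both. Its highest level was 32.7 CPM, in Ang II 28D library 2. Itga6, of laminin receptors, was wholly above sham at day 28, at 0.92 ± 0.26 (edgeR adjusted p = 0.217). The 2 subunits wholly below sham at day 28 were Itga10, a collagen receptor, at -1.62 ± 0.40, and Itga3, a laminin receptor, at -1.58 ± 0.40 (edgeR adjusted p = 0.206 and 0.213).

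Of 29 tested genes of the integrin activators and adhesion complex (Fermt1 was too low), 5 were wholly above sham at day 14 (12.6% of genes) and 0 below (13.5% of genes). At day 28, 4 were wholly above, a share near the 12.2% of all genes, and 9 wholly below (9.47% of genes). The genes below at day 28 included Zyx, Flna and Actn1, which encode the actin-linking proteins zyxin, filamin A and alpha-actinin-1, with log2 fold changes of -1.68 ± 0.40, -2.23 ± 0.57 and -1.87 ± 0.48 (edgeR adjusted p = 0.203, 0.213 and 0.213). Tgfb1i1, which encodes the focal adhesion protein Hic-5, was at -1.73 ± 0.44. Ilk, the integrin-linked kinase gene, was at -0.91 ± 0.30 (edgeR adjusted p = 0.245). Among those above at day 14 was Fermt3, which encodes the kindlin of blood cells, at 3.40 ± 0.66 (edgeR adjusted p = 0.117), with Parvg, Ptk2b and Csk at 3.42 ± 0.79, 1.68 ± 0.47 and 1.35 ± 0.41. Tln1 (talin-1), Fermt2 (kindlin-2) and Ptk2 (focal adhesion kinase) differed less at day 28, at -0.48 ± 0.23, -0.52 ± 0.34 and -0.12 ± 0.15. Fermt2 was still among the genes wholly below sham, narrowly, with 201 to 253 CPM in sham and 119 to 200 CPM at day 28. edgeR called 0 genes of each of these 3 lists in each comparison (0.0% of all genes). Itgb1bp2, for melusin, a partner of the Itgb1 chain in striated muscle, was at 34.4 and 13.3 CPM in Ang II 28D libraries 1 and 2 and at most 5.11 CPM in the other 7, the same libraries in which skeletal muscle markers were high.

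Without Ang II 28D libraries 1 and 2, which leaves 1 library in that group, 8 members were wholly below sham at day 28, against 22.2% of genes. Without sham library 2, Ang II 14D library 1 and Ang II 28D library 2, 9 were, against 23.2% of genes, and at day 14 the number was 7, against 29.2% of genes. The day-28 log2 fold change without those 2 libraries and without those 3 was -4.05 and -3.57 for Itga8, -2.59 and -2.44 for Itga9, -1.80 and -1.92 for Itgb3, -0.91 and -0.89 for Itgb1 and 1.62 and 1.46 for Itga11, and edgeR called 0 members in either.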

How the data were processed

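RNA of 9 mouse aortic samples was sequenced with a poly(A) library kit, per the labels' protocols. Per the submitters' processing notes the tools were HISAT2 2.2.1, Bowtie2 2.4.5 and RSEM 1.3.1 and the build GRCm38.p6. The deposited values are expected counts per gene, as RSEM estimates them; all counts of the 10 members were whole. The strand setting and counting options are unstated there.

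Members and lists were chosen with earlier results of these data known. Expected counts were rounded, scaled by TMM and tested with edgeR 4.0.16 (quasi-likelihood, robust, filterByExpr, 1 coefficient per group, 9 libraries together) in R 4.3.3, with Benjamini-Hochberg adjustment over 14751 genes and a threshold of 0.05. DESeq2 1.42.0 and limma 3.58.1 (voom) were alternatives. CPM are TMM-scaled; marker levels are mean log2(CPM + 0.5). RPKM are CPM divided by the length in kilobases of the longest principal coding transcript of GENCODE M21, or by exon-union length. SE is the log2 fold change divided by the square root of F. Of 18830 genes, 55 had no symbol. No pair of libraries was identical. The tests were checked on simulated data. These had the same changes planted in both Ang II groups, so no difference between days was simulated. Their spread was estimated without regard to group, and the outcome is not reported here.

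All 10 members are named in every comparison. Of each pathway list the genes with the smallest p in each comparison with sham, and a set chosen by role, could be named. The 5 genes most like a member are those with the highest Pearson correlation of log2 CPM, of genes with a mean of at least 10 CPM. Correlations carry no p. The replicate numbers are not stated to pair mice across groups, so the groups were treated as unpaired.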

Additional observations from a re-analysis of the deposited data

How the results depend on the processing

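With DESeq2 the genes called were 1977 at day 14, 973 at day 28 and 118 between days, and the members called 2, 4 and 1, against 0 with edgeR. With the replicate block, with only the libraries of the 2 groups compared, and without Ang II 28D libraries 1 and 2 (chosen after seeing the data), 1 gene was called at day 14 in each case. Leaving out 1 library gave 0 to 7 genes at day 28 (5 without sham library 2, 7 without Ang II 28D library 3) and 0 to 1 members. Same-numbered libraries deviated together in some pairs and against each other in others (correlations of -0.553 to 0.645). Deviations from a mean of 3 libraries that differ in tissue content cannot show whether the numbers mark a batch or a pairing. Under the replicate block no member was called. Members wholly below sham at day 14 numbered 7 in place of 1 without the library of each group highest in nerve markers. The share of all genes then went from 13.5% to 29.2%, and the cause was not tested. Nerve transcripts remained in the libraries kept, with these markers at a mean log2 CPM of 6.33 in Ang II 28D library 3 and 5.17 in Ang II 14D library 3. For the 10 members, 175 of 180 values at day 28 kept direction and side of the threshold and 0 reversed; at day 14, 165 of 180 did and 13 reversed; between days, 173 of 180 did and 6 reversed. The cause was not tested for any of these. The day-14 value of Itga5 was 0.01 with DESeq2, with RLE factors and with 2 groups only, 0.16 with the replicate block and 0.12 with limma-voom, and ran from -0.39 to 0.47 when 1 library was left out. Leaving out 1 library moved the day-14 values of Itgb1 from -0.34 to 0.02, of Itgav from -0.15 to 0.39 and of Itgb5 from -0.30 to 0.72, and the values between days of Itga1 from -0.04 to 0.40, of Itga7 from -0.60 to 0.07 and of Itga11 from -1.22 to 0.94. Itga7 between days was 0.20 without the library of each group highest in nerve markers. The planned fit on FPKM was not run, because the files analysed hold counts alone. With 3 libraries a group, an exact permutation test of 1 value cannot go below p = 0.1.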
